A study of Mus musculus with 2 samples.

Results

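T-box genes encode transcription factors that share a DNA-binding domain, the T-box, and that set cell identity and tissue borders in the embryo. Several act in the head and face: *Tbx1* is required in the pharyngeal arches and is a main gene of the DiGeorge deletion, *Tbx22* is mutated in X-linked cleft palate, and *Tbx2*, *Tbx3*, *Tbx15* and *Tbx18* are known from facial or limb mesenchyme. DLX2 is a homeodomain transcription factor of the cranial neural crest, the migratory cells that form most of the facial skeleton. The regulatory sequence of such developmental genes often lies far from the gene.

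The question here was where CUT&Tag peaks for DLX2 lay around 9 T-box genes in the maxillary process, from which the upper jaw arises. The genes were *Tbx1*, *Tbx2*, *Tbx3*, *Tbx4*, *Tbx5*, *Tbx15*, *Tbx18*, *Tbx20* and *Eomes*, which were chosen by the peaks already seen near them. Peaks inside each RefSeq gene extent of GRCm38.p6, or within 100 kb of it, were collected. They came to 43 of the 28061 peaks of replicate 1 and 85 of the 62093 peaks of replicate 2. A shared region, meaning a stretch covered by a peak of each replicate, was found at 20 places, out of 10921 in all. The presence and strength of these peaks guided the choice of genes, so their numbers are descriptions and carry no test.

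Both libraries were made from E12.5 wildtype C57BL/6 mouse embryos, from maxillary process cells, with the Abcam antibody ab272902 against DLX2. No input, control antibody or second genotype was used here. The labels do not say whether the 2 libraries came from separate litters. Peak lists hold no expression, so the labelled tissue could not be checked against marker genes, and a peak does not show which gene it acts on.

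Replicate 2 gave more peaks and a higher background in fragments. This background is not scaled to library depth, so it is no measure of noise. Its list was 2.21 times as long, and the lowest background recorded under a peak was 2.84 times as high as in replicate 1. The files give no read totals, and fragment numbers were recovered from the fold enrichment and p of each peak. The peaks near the 9 genes rested on a median of 7 fragments at the summit in replicate 1 (range 4 to 30) and 9 in replicate 2 (range 6 to 54). Over all peaks, these medians were 6 and 9. The fold enrichment divides the summit fragments plus 1 by the library's own local background plus 1. In the text, a 95% interval of a fold is an exact Poisson interval of the summit fragments, which covers counting error only.

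Of the 9 genes, 7 had a shared region within 100 kb. Over 21779 protein-coding genes, 60.2% did, so that having a shared region is common in these lists. The peaks of a single replicate were less selective still. All 9 genes had a replicate 1 peak within 100 kb, against 83.0% of coding genes, and all 9 had a replicate 2 peak, against 91.7%. With a fold of at least 5 in both replicates, 6 of the 9 genes had a shared region, against 28.6% of coding genes. Of the 8 T-box genes outside the 9, 4 had one. With a fold of at least 10 in both, *Eomes* alone of the 9 did so, against 0.542%. Only *Tbx5* held a shared region inside its own extent, which was true of 14.6% of coding genes. The median number of shared regions per gene was 1 among the 9 genes and also 1 among all coding genes.

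The genes differed widely from each other. Below and above mean toward lower and higher coordinates. *Tbx5* had 10 shared regions, *Tbx3* had 7 and *Eomes* had 3. *Tbx2*, *Tbx4*, *Tbx15* and *Tbx18* had 1 each. *Tbx1* and *Tbx20* had 0. Of all coding genes, 0.358% had at least as many shared regions as *Tbx5*, 1.37% at least as many as *Tbx3* and 18.4% at least as many as *Eomes*. These shares do not allow for window length, which was 0.289 Mb for *Tbx5* and a median of 0.217 Mb over coding genes. The 10 regions of *Tbx5* rested on 9 replicate 2 peaks, and the 7 of *Tbx3* on 6. The counts per gene fell with stricter settings. Within 50 kb, *Tbx5* had 5, *Tbx3* had 4 and *Eomes* had 1, without its strongest region. When a −log10 q of 5 or more was required in both replicates, *Tbx5* had 3, *Tbx3* had 1 and *Eomes* had 2. The windows of *Tbx3* and *Tbx5* overlap, as do those of *Tbx2* and *Tbx4*, so their counts are not separate.

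**Figure D1:**
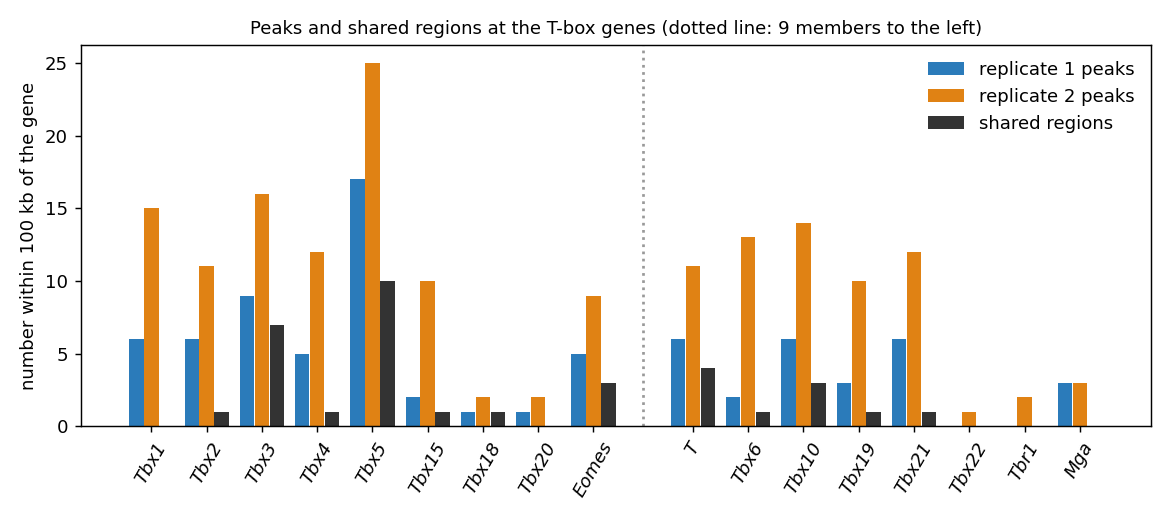
Number of replicate 1 peaks (blue), replicate 2 peaks (orange) and shared regions (black) within 100 kb of each T-box gene, with the 9 chosen genes left of the dotted line and the 8 other T-box genes right of it. *Tbx5* has the most of each, at 17, 25 and 10, whereas *Tbx1* has 6 and 15 peaks but 0 shared regions.

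**Figure D2:**
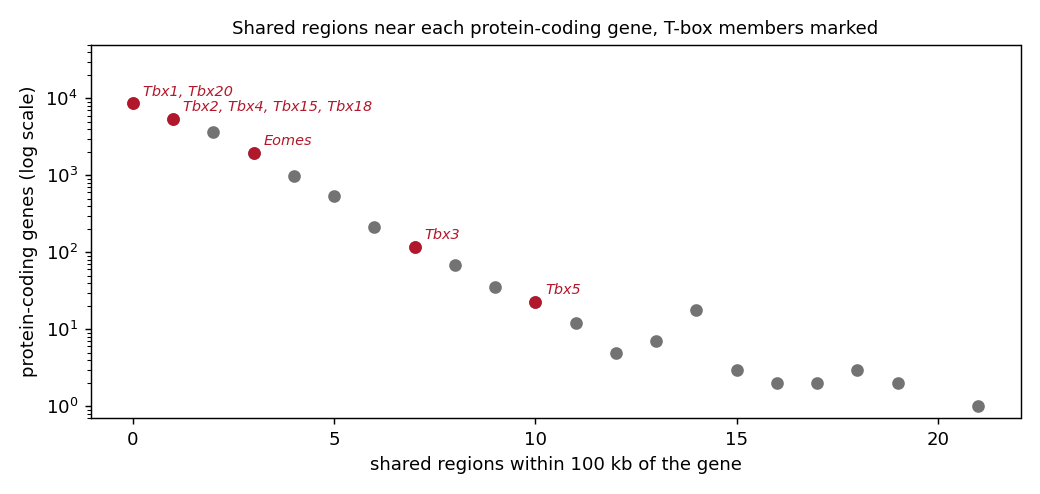
Each point gives the number of protein-coding genes, on a log axis, that have a given number of shared regions within 100 kb. The red points hold the 9 T-box genes, which spread from 0 shared regions (*Tbx1*, *Tbx20*) to 10 (*Tbx5*).

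The strongest region lay upstream of *Eomes*. *Eomes*, also called Tbr2, is known for its roles in early mesoderm, the trophoblast and intermediate progenitors of the cortex. Its extent is chr9:118478186-118486132. The region at chr9:118401083-118401623 (mm10) reached a fold of 13.9 in replicate 1 against 17.7 in replicate 2, a mean of 15.8 ± 2.68 (SD, n = 2). It rested on 30 fragments in replicate 1 and 54 in replicate 2. The 95% intervals of the fold, 9.54 to 19.7 in replicate 1 and 13.4 to 23.0 in replicate 2, overlap. By the fold in the lower replicate it ranked 5 among all 10921 shared regions. Its peak ranked 8 of 28061 in replicate 1 and 4 of 62093 in replicate 2.

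This region did not lie between *Eomes* and *Platr11*, a long non-coding RNA gene, but on the far side of *Platr11* from *Eomes*. It ended 0.394 kb short of the lower end of *Platr11* and 76.6 kb from *Eomes*. *Eomes* is on the plus strand, so the region lay upstream of it. *Platr11* runs over 45.2 kb, and its upper end lies 31.0 kb from *Eomes*. Nearest protein-coding gene and nearest gene of any kind thus differ here.

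A further pair of shared regions fell inside *Platr11*. The one at chr9:118442339-118442967, 35.2 kb upstream of *Eomes*, had a fold of 8.76 in replicate 1 against 11.96 in replicate 2. It was 629 bp wide, the widest of the 20 regions, and ranked 163 by its lower fold. Its summits lay 33 bp apart in the 2 replicates. The other, at chr9:118422981-118423094, had a fold of 7.72 in replicate 1 against 4.17 in replicate 2, on 10 and 8 fragments, with overlapping intervals.

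No shared region lay on the downstream side of *Eomes*. That side held 2 peaks of replicate 1, with folds of 4.25 and 3.20, and 3 peaks of replicate 2, with folds between 2.95 and 4.68. None of them met a peak of the other replicate. The *Eomes* promoter itself, from 250 bases before to 50 bases after the annotated start, held no peak in either list.

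**Figure D3:**
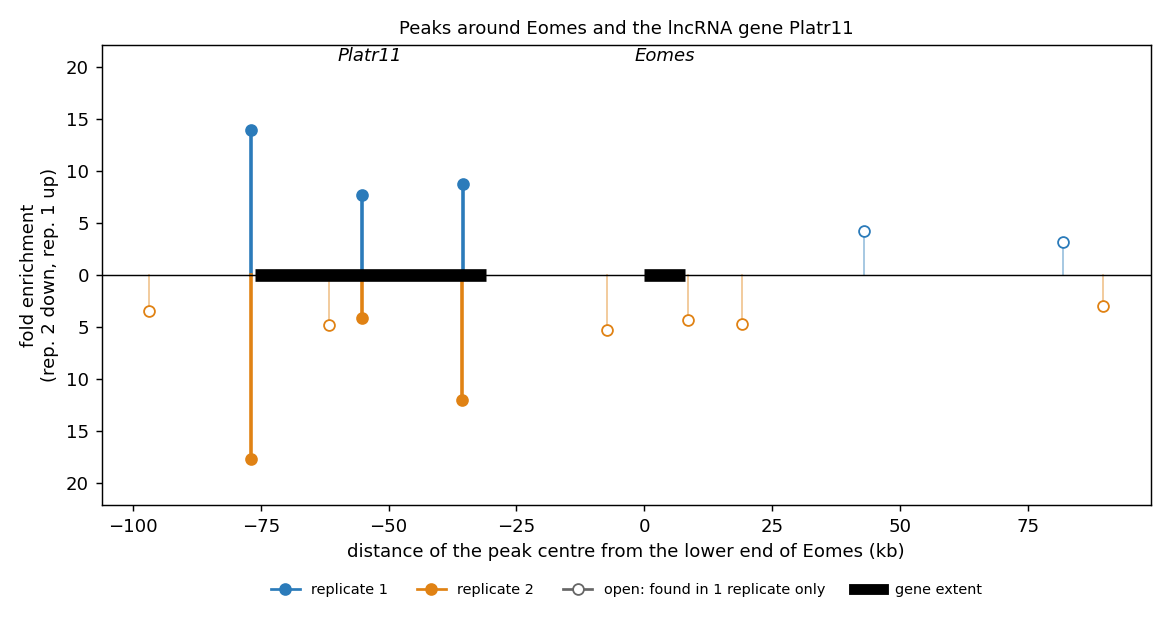
Peaks within 100 kb of *Eomes*, placed by the distance of the peak centre from the lower end of the gene in kb. Stems give the fold enrichment, upward for replicate 1 and downward for replicate 2, with filled circles for peaks found in both and open circles for peaks of 1 replicate, and black bars mark the extents of *Platr11* and *Eomes*. The 3 filled pairs all lie upstream of *Eomes*, at or inside *Platr11*, and the strongest reaches 13.9 and 17.7.

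*Tbx3* and *Tbx5* lie side by side on chromosome 5, with 112 kb between them. *Tbx3* encodes a repressor needed in limb, mammary gland and heart, and *Tbx5* an activator of forelimb and heart development. Their extents are chr5:119670534-119684724 for *Tbx3* and chr5:119796514-119885220 for *Tbx5*. Their joined windows, 415 kb long, held 14 shared regions, or 33.8 per Mb against 4.23 per Mb over chromosomes 1 to 19 and X. A pair of these came from a single replicate 2 peak that met 2 replicate 1 peaks, so 13 replicate 2 peaks and 14 replicate 1 peaks were involved. The regions spread over 393 kb. They lay below *Tbx3* (3), between the genes (4), inside *Tbx5* (3) and above *Tbx5* (4). The density did not end at the window: from 100 to 500 kb below *Tbx3* there were 14 more shared regions, and from 100 to 500 kb above *Tbx5* there were 5.

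The highest lower fold in the locus was at chr5:119955108-119955471, 69.9 kb above *Tbx5*, with 8.21 in replicate 1 and 9.85 in replicate 2 (mean 9.03 ± 1.16, SD, n = 2) on 12 and 27 fragments. By lower fold it ranked 256. The next was at chr5:119782325-119782602, between the genes, 13.9 kb below *Tbx5* and 97.6 kb above *Tbx3*. Its fold was 7.01 in replicate 1 and 9.57 in replicate 2, a mean of 8.29 ± 1.81 (SD, n = 2), on 12 and 27 fragments. This was also the region of *Tbx3* with the highest lower fold, although *Tbx5* is the closer gene.

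Inside *Tbx5* there were 3 shared regions. The region at chr5:119848613-119848884 had a fold of 5.92 in replicate 1 against 9.28 in replicate 2. At chr5:119854762-119854987 the folds were close, 6.60 in replicate 1 and 6.53 in replicate 2. The weakest, at chr5:119872020-119872099, had 3.89 in both, on 5 and 9 fragments. Exons and introns of *Tbx5* were not analysed here, since the annotation used holds gene extents alone.

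Around *Tbx3*, which held none inside its extent, the closest shared region lay 9.45 kb above the gene at chr5:119694175-119694387, where the folds were 5.59 and 6.40 in replicates 1 and 2. On the lower side, the region farthest out, 87.0 kb from *Tbx3* at chr5:119583172-119583533, had 5.97 in replicate 1 and 9.51 in replicate 2. A pair of regions on that side, 54.0 and 47.6 kb from *Tbx3*, fell inside *Tbx3os1*, an antisense long non-coding RNA gene. The one 54.0 kb away had folds of 5.95 and 5.83, and the one 47.6 kb away had 6.37 and 4.09, in replicates 1 and 2 respectively. The double region 43.8 and 43.9 kb above *Tbx3* joined 2 replicate 1 peaks with folds of 4.67 and 4.66 to 1 replicate 2 peak with a fold of 9.22. Its narrower part was 28 bp wide, with summits 426 bp apart, the farthest apart of the 20 regions.

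Not every strong peak in this locus recurred. A replicate 2 peak at chr5:119969604-119970148, 84.4 kb above *Tbx5*, had a fold of 6.77 on 19 fragments and met no replicate 1 peak. It was the strongest peak near the 9 genes that was listed in a single replicate. At the margin of the window, the outermost shared region of *Tbx5* lay 90.9 kb away (folds 4.68 and 5.60), and the next lay 102 kb away (folds 5.59 and 6.40). That next region is the one 9.45 kb from *Tbx3*. For *Tbx3*, the outermost was the region 97.6 kb away named above and the next lay 104 kb away (folds 4.12 and 5.58).

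**Figure D4:**
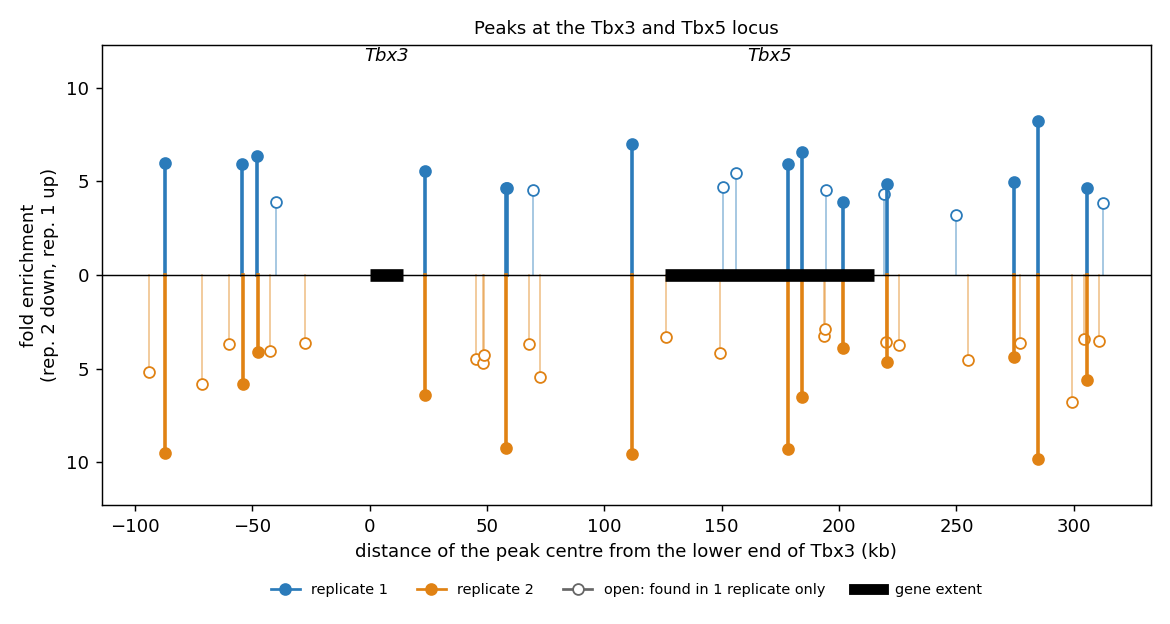
Peaks of the *Tbx3* and *Tbx5* locus, placed by the distance of the peak centre from the lower end of *Tbx3* in kb. Stems give the fold enrichment, upward for replicate 1 and downward for replicate 2, filled circles mark peaks found in both replicates and open circles those found in 1, and black bars are the gene extents. Filled pairs run from below *Tbx3* to above *Tbx5*, and in 6 of the 14 shared regions the replicate 2 fold is 9 or more. A pair of these 6 shares the same replicate 2 peak, with a fold of 9.22, which is drawn once.

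*Tbx2* and *Tbx4* are the other neighbours, 44.4 kb apart on chromosome 11. *Tbx2* is a repressor close to *Tbx3* in sequence, and *Tbx4* is the hindlimb relative of *Tbx5*. Their extents are chr11:85832615-85841948 for *Tbx2* and chr11:85886367-85916097 for *Tbx4*. They had the same single shared region, at chr11:85882914-85883154, 3.21 kb below *Tbx4* and 41.0 kb above *Tbx2*. The fold was 6.40 in replicate 1 and 5.90 in replicate 2, a mean of 6.15 ± 0.355 (SD, n = 2), on 9 and 13 fragments. The nearest coding gene was *Tbx4*, so by that rule *Tbx2* had 0 shared regions. *Tbx4* is on the plus strand, which puts the region on its upstream side. The only *Tbx4* promoter window used here, chr11:85896515-85896814, lies inside the gene extent. The start in that window is therefore farther from the region than 3.21 kb. Taken alone, replicate 1 listed 6 peaks for *Tbx2* and 5 for *Tbx4*, and replicate 2 listed 11 and 12.

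*Tbx18*, a gene of mesenchymal progenitors of the sinus node, ureter and somites (chr9:87702800-87731260), lay in a nearly empty window with 1 strong region. Replicate 1 had 1 peak there and replicate 2 had 2. The shared region at chr9:87632467-87632684 had a fold of 9.37 in replicate 1 against 7.14 in replicate 2, a mean of 8.26 ± 1.58 (SD, n = 2), on 12 and 14 fragments. It ranked 626 by its lower fold. *Tbx18* is on the minus strand, and the region lay 70.1 kb beyond its downstream end. The next shared region was 851 kb from the gene.

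*Tbx15*, a mesenchymal gene of skeleton and skin (chr3:99240348-99354260), had the shared region with the lowest lower fold of the 20. At chr3:99215597-99215668 the fold was 4.89 in replicate 1 and 2.95 in replicate 2, on 6 fragments in each, and the region ranked 10883 of 10921 by its lower fold. It lay 24.7 kb below *Tbx15* but inside *Wars2*, the gene for mitochondrial tryptophanyl-tRNA synthetase. The region was lost when a fold or a −log10 q of 5 was required, and when 50% of each peak had to be in common. Replicate 2 had 3 peaks inside *Tbx15* and replicate 1 had 0.

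*Tbx1* (chr16:18580979-18590671) had peaks in both lists but none in the same place. Replicate 1 had 6 within 100 kb, with folds between 3.28 and 4.58, and replicate 2 had 15, with folds between 2.85 and 4.98. Inside the gene there was 1 replicate 2 peak, at chr16:18584848-18585181, with a fold of 3.62 on 9 fragments. The nearest shared region was 162 kb away, with folds of 4.70 and 4.50.

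*Tbx20*, a heart gene (chr9:24720812-24774303), had as few peaks around it as *Tbx18*, and none in common. Replicate 1 listed 1 peak, 79.7 kb above the gene, with a fold of 4.56 on 6 fragments. Replicate 2 listed 2, both inside or across the gene extent, each with a fold of 4.28 on 8 fragments. The nearest shared region was 262 kb away, with folds of 6.06 and 4.90.

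One of these replicate 2 peaks, chr9:24774216-24774557, covered the *Tbx20* promoter. Promoter sequences were given for 5 of the 9 genes, namely *Tbx1*, *Tbx4*, *Tbx18*, *Tbx20* and *Eomes*, in 6 windows of 300 bases each. Of the 6 windows, 1 met a replicate 2 peak, against 2.69% of 32851 windows, and 0 met a replicate 1 peak, against 0.791%. Of 10 windows of the other T-box genes, 0 met a peak of either replicate. The *Tbx20* sequence is shown because it is the only one of these promoters found under a peak. It is printed from 250 bases before the start to the last base before it (RefSeq, GRCm38.p6, chr9:24774304-24774553, minus strand), with capitals for the only match to the motifs searched:

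Tbx20 promoter: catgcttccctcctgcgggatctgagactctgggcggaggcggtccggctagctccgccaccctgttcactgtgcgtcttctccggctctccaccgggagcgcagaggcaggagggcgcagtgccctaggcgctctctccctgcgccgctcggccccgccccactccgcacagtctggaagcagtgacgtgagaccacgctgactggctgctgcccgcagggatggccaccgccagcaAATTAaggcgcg

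The capitals are the homeodomain core TAATT read on the other strand, starting 12 bases before the start site. The window of 300 bases was rich in G and C, at 68.3% against a median of 52.7% over all windows. All motifs were searched on both strands. The homeodomain core was found in 3 of the 6 windows, those of *Tbx18*, *Tbx20* and *Eomes*, against 27.0% of all windows. Its longer form with a G after it (TAATTG), which always overlaps the core, was found in 2 windows, those of *Tbx18* and *Eomes*, against 8.00% of all. These 2 windows met no peak. A T-box site, spelled GGTGTGA, was found in 0 of the 6 windows, against 3.98% of all. The Runx motif searched, TGTGGT, was also found in 0, against 16.8%. An E-box of the form CACGTG was found in 0 as well, against 7.15%. The sequences under the shared regions were not analysed here, since no genome sequence was used.

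Across the 20 shared regions, the fold was higher in replicate 2 at 11 and in replicate 1 at 9. That put 55.0% higher in replicate 2, beside 49.6% of all shared regions. A pair of the 11 shares the same replicate 2 peak. The order rested on the 1 fragment added to each term. Fragments divided by background were higher in replicate 2 at 5 and in replicate 1 at 15. In all 20, the 95% counting intervals of the replicates overlapped on either scale. At these fragment numbers no difference between replicates was detectable by this measure. Each region had to be listed in both replicates and the intervals are wide, so the overlap cannot show that the replicates are alike. How often it occurs over all shared regions was not computed. The lower of both folds had a median of 5.71 (range 2.95 to 13.9), beside 4.51 over all shared regions. In 11 of the 20, or 55.0%, both folds were at least 5, beside 35.1% of all shared regions. Of the 20, 14 lay in the *Tbx3* and *Tbx5* locus, where 7 reached that level. Near the 8 other T-box genes, 5 of 10 shared regions, or 50%, reached it, with a median lower fold of 4.96. Across the 20 regions, the median width was 222 bp, beside 151 bp over all. The summits of the replicates lay a median of 84.5 bp apart (range 5 to 426), beside 63.0 bp over all.

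Replicate 1 listed 43 peaks here, and 20 of them overlapped one of replicate 2, or 46.5%, beside 38.9% in the whole list. Replicate 2 listed 85, and 19 of them overlapped one of replicate 1, or 22.4%, beside 17.2%. Peaks found in both had the higher median fold. Their median fold in replicate 1 was 5.96, beside 4.35 for those that met none, and 6.40 beside 3.81 in replicate 2.

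**Figure D5:**
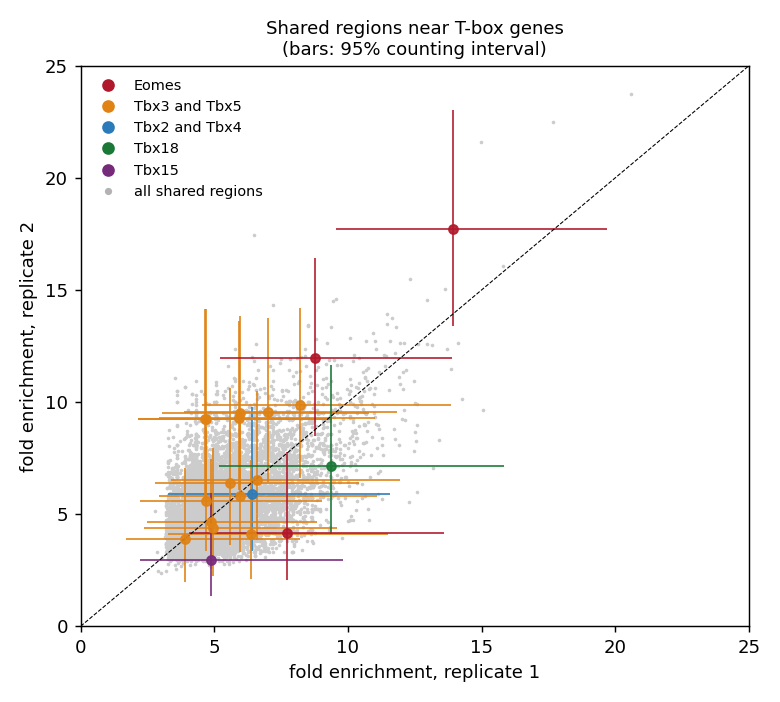
Fold enrichment of each shared region in replicate 1 (x axis) and replicate 2 (y axis), with grey points for all shared regions, coloured points for those near the T-box genes, bars for the 95% counting interval of the fold and a dashed line at equal values. The region upstream of *Eomes* stands at 13.9 and 17.7, and the intervals of both replicates overlap in all 20 regions. The share of all shared regions with such overlap was not computed.

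By subfamily, the *Tbx2* subfamily (*Tbx2*, *Tbx3*, *Tbx4*, *Tbx5*) had a shared region at each of its 4 genes, against 60.2% of coding genes. For *Tbx2* and *Tbx4* this was the same region, and *Tbx2* had 0 when the region had to lie nearest to it. Of the *Tbx1* subfamily, *Tbx15* and *Tbx18* had 1 each, *Tbx1* and *Tbx20* had 0, and of the genes outside the 9, *Tbx10* had 3 and *Tbx22* had 0. Of the *Tbr1* subfamily, *Eomes* had 3, *Tbx21* had 1 and *Tbr1* had 0. *T*, the founding gene of the family, had 4, *Tbx6* and *Tbx19* had 1 each and *Mga* had 0.

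In all, 5 of the 8 other T-box genes had a shared region, against 60.2% of coding genes, and they had 10 such regions in total. None of the 10 had a T-box gene as its nearest coding gene. Of the 20 near the 9 genes, 19 did, with 14 of these in the *Tbx3* and *Tbx5* locus and 3 near *Eomes*. Since the 9 genes were chosen by peaks near them, these counts do not set the 2 groups of genes apart. The strongest of the 10 by lower fold lay near *Tbx6*, at chr7:126741660-126741763. Replicate 1 had a fold of 8.64 there against 6.59 in replicate 2, and *Mapk3* was its nearest coding gene. The region near *Tbx21* lay 0.555 kb from *Sp6*, a gene of the dental epithelium, with folds of 6.23 and 5.34. *Tbx22*, the palate gene of the family, had 0 peaks in replicate 1 and 1 in replicate 2, with a fold of 3.33 on 6 fragments. It lies on the X chromosome, which had 0.411 shared regions per Mb against 4.50 on the autosomes, and the part of this difference in the *Tbx22* count was not tested.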

How the data were processed

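CUT&Tag peaks for DLX2 in 2 wildtype E12.5 libraries (replicates 1 and 2, numbered in the order of their records) were taken as listed by the authors for each library alone. The submitters' processing notes name Trim Galore 0.4.5, Bowtie 1.1.2, MACS2 2.2.7 and build mm10. The study's methods name other versions of the trimming tool and aligner, and the labels describe sonicated chromatin where the methods describe transposase tagging. Which account holds for these files was not settled. The authors deposited for each peak a fold (a ratio of summit fragments to local background), a −log10 p, a −log10 q, a score (10 times the −log10 q, cut to a whole number) and the summit position. Both lists stop at a −log10 q of 1.00. They are longer than the peak sets described in the study's text, and the filter between them is not given in the sources used here. Shared regions and their share of coding genes therefore refer to the longer lists.

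Genes were RefSeq extents of GRCm38.p6, which is mm10, with 21779 coding genes on chromosomes 1 to 19, X and Y after 108 that start in the first 3 Mb were left out. Shared regions needed 1 bp in common. Whole fragments were recovered with fold = (fragments + 1) / (background + 1) and an upper Poisson tail, to a tolerance of 0.001, for 100% of peaks in each list. They are inferred values. Strand was taken from the promoter windows. By the naming rule, the 9 genes were described, each with its strongest shared region by lower fold, and 8 further T-box genes were given by counts. Other peaks and genes named were picked after their values were seen. Genes, lists and alternatives were chosen with earlier results of these data known. With 1 group and 2 libraries no test between groups could be made. Overlap and fragment recovery were tested on simulated data. Scripts ran under Python 3.11.15 with scipy 1.17.1, numpy 2.4.6, pandas 2.3.3 and matplotlib 3.10.9.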

Additional observations from a re-analysis of the deposited data

How the results depend on the processing

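The numbers near the T-box genes depended on the window and filters, by construction. With both lists, between 5 and 7 genes had a shared region under each alternative but gene extents alone. The share of coding genes with a shared region moved as well. Within 50 kb there were 12 shared regions at 6 genes, 27 and 54 peaks in replicates 1 and 2, and 44.7% of coding genes had a shared region. Inside gene extents there were 3 shared regions at 1 gene, 7 and 17 peaks, and 14.6% of coding genes had one. With the −log10 q set to 5 or more, there were 7 shared regions, 9 and 17 peaks, and 14.9% of coding genes. With the fold set to 5 or more, there were 11 shared regions, 16 and 19 peaks, and 28.6% of coding genes. With 50% of each peak in common, 12 shared regions were counted at 6 genes, beside 44.8% of coding genes. With summits within 150 bp, there were 18 at 7 genes, beside 56.2% of coding genes. Where the T-box gene had to be the nearest coding gene, 5 genes kept a region, and no share of coding genes was computed. Using 1 replicate alone gave 43 to 85 regions at all 9 genes, beside 83.0 to 91.7% of coding genes, since unshared peaks then enter. The 14 shared regions of the *Tbx3* and *Tbx5* locus, an alternative count added after the data were seen, became 3 with the −log10 q and 7 with the fold set to 5 or more, 8 with 50% in common, and 22 to 34 in 1 replicate alone. Without the 1 fragment added to each term, the mean ratio at the strongest region was 25.1 for *Eomes*, 21.9 for *Tbx18*, 17.6 for *Tbx5*, 14.0 for *Tbx3*, 12.8 for *Tbx2* and *Tbx4*, and 9.16 for *Tbx15*. In a tally on that scale, added after the data were seen, 15 regions were higher in replicate 1 and 5 in replicate 2. At 50 kb *Tbx18* had 0 shared regions and *Eomes* had 1. *Tbx1* and *Tbx20* had 0 in each alternative that used both lists. No paired analysis was possible because there is 1 group. With a median of 7 and 9 fragments at the summit of a peak in replicates 1 and 2 and no control library, depth limits what a missing peak shows.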
